A study of Drosophila melanogaster with 8 samples.

Results

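The genes described here encode the mitochondrial respiratory chain and the ATP synthase of the *Drosophila* larval midgut. A gene was a member if its FlyBase symbol began with ND-, Sdh, UQCR, COX followed by a digit, or ATPsyn, or with mt:ND, mt:Co, mt:Cyt-b or mt:ATPase, and if its identifier had a row in the gene count table. This rule used no measured value. It found 101 of 17713 genes in the table. Of these, 63 were nuclear genes for subunits, namely 34 of complex I, 4 of complex II, 6 of complex III, 8 of complex IV and 11 of complex V. A further 24 were nuclear paralogues of subunits whose symbols end in L, 1 was the complex II assembly factor Sdhaf3, and 13 were mRNAs of the mitochondrial genome.

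Complexes I to IV pass electrons from NADH and succinate to oxygen, and complexes I, III and IV use the energy released to pump protons across the inner mitochondrial membrane. Complex V, the ATP synthase, lets the protons flow back and makes ATP. Complex II is encoded wholly in the nucleus and is also an enzyme of the tricarboxylic acid cycle, whereas the other complexes combine nuclear subunits with a few that are encoded in the mitochondrial genome, so that their assembly draws on both genomes. Fly mitochondrial mRNAs are cut from long transcripts and carry poly(A) tails, and so they can enter libraries that select for such tails.

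The libraries were made from poly(A)-selected RNA of midguts dissected from larvae of the third instar at 96 hours after eggs were laid, with 2 libraries for each of 4 genotypes, all on a y w background. The gene varied was *Pngl*, which encodes the fly counterpart of N-glycanase 1, an enzyme that removes N-linked glycans from proteins in the cytoplasm. The y w larvae carried wild-type *Pngl*. The larvae called Pngl+/- carried 1 copy of the allele *Pngl[ex14]* over the balancer chromosome CyO, Kr>GFP. The larvae labelled Pngl-/- were homozygous for *Pngl[ex14]*, and those called Pngl Dp/+ were also homozygous for *Pngl[ex14]* but carried a genomic transgene, PBac{Pngl[wt]}. Only Pngl+/- carried the balancer, so an effect of the balancer and an effect of heterozygosity cannot be told apart. Each library pooled midguts of both sexes, the midgut holds several cell types, and all genotypes were matched in hours after egg laying rather than in stage. The study describes Pngl-/- larvae as delayed in development, and the part of stage in the results was not tested.

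Total counts ranged from 20414011 to 28382919 per library. Levels are given as CPM, a gene's counts as a share of its library's counts on a fixed scale, on library sizes scaled by the trimmed mean of M values (TMM), replicate 1 before replicate 2. The mRNA of *Pngl* itself was at 33.6 and 31.4 CPM in y w, 21.1 and 20.7 in Pngl Dp/+, 45.0 and 41.5 in Pngl+/-, and 58.3 and 56.7 in the libraries labelled Pngl-/-. It was thus highest where the functional gene should be missing, so the transcript gave no check of the labels. The end of *Pngl* overlaps that of *Strica* on the opposite strand, and the counts may include reads of that gene. Of 9 enterocyte and digestive genes, all 9 had counts in every library. Their sum was 43911 and 47271 CPM in y w, between 54216 and 57472 in Pngl Dp/+ and Pngl+/-, and 63750.5 and 60611 in the libraries labelled Pngl-/-, where 7 of 9 were called higher than in y w and 0 lower. In Pngl+/- 2 were called higher and 3 lower. Summed over 10 muscle genes, the level was 7900.3 and 8093 CPM in y w, 8193 and 8245 in Pngl Dp/+, 4556 and 4483 in Pngl+/-, and 4636 and 4599 in the libraries labelled Pngl-/- so that y w and Pngl Dp/+ both lay above the other 4 libraries. All 10 had counts in every library, and against y w 6 of 10 were called lower in the libraries labelled Pngl-/- and 8 of 10 in Pngl+/-, by the test described below. Summed over 7 fat body genes, the level was 31469 and 31097 CPM in y w and 34316.5 and 35628 in Pngl Dp/+. It was 53615 and 51322 CPM in Pngl+/-, and 24745 and 24671 in the libraries labelled Pngl-/-. These genes went both ways in Pngl+/- against y w, with the 4 Lsp genes called higher and Fbp1, Fbp2 and apolpp called lower. In the libraries labelled Pngl-/-, Fbp1, Fbp2, Lsp1alpha and apolpp were called lower than in y w, and the rest were not called. Summed over 5 Malpighian tubule genes, the level was 71.4 and 73.7 CPM in Pngl Dp/+ and between 119 and 149 in the other 6 libraries. This gap lay in Uro, at 26.0 and 25.5 CPM in Pngl Dp/+ and between 76.5 and 112 elsewhere. Other genes of the list went the other way, and tsh and Best2 were called higher in Pngl Dp/+ than in Pngl+/-. Summed over 4 haemocyte genes, the level was 24.7 and 25.4 CPM in the libraries labelled Pngl-/- and between 48.6 and 53.8 in the other 6. Against y w, Hml and Pxn were called lower there and NimC1 higher. Summed over 6 salivary gland genes, it was 3878 and 3808 CPM in y w and 3569 and 3696 in the libraries labelled Pngl-/-. It was between 6333 and 6964 in Pngl Dp/+ and Pngl+/-. Against y w, Sgs1 and Sgs3 were called lower in the libraries labelled Pngl-/- and Sgs8 higher. The part of these tissues in the results was not tested, and in bulk samples fewer cells of a type and less RNA per cell cannot be told apart.

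A gene was tested if it reached 5 CPM in at least 2 libraries, which 7665 genes did. It was called higher or lower if it changed by at least 1.5-fold at an adjusted p of at most 0.05 in edgeR's quasi-likelihood test with Benjamini-Hochberg adjustment over all genes tested. Of the members, 72 were tested: 61 nuclear subunits, Sdhaf3 and 10 mitochondrial mRNAs. None of the 24 paralogues passed. ND-MNLL had 0 counts in every library, and all 720 bases of its exons lie within exons of CG45089 on the same strand. ND-B8 had at most 5 counts in any library.

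The first question was whether respiratory chain mRNAs differed between larvae labelled Pngl-/- and the y w wild type. Almost all of them were higher. In the libraries labelled Pngl-/-, 61 of 72 members tested were called higher and 0 lower, against 17.9% of all genes tested called higher and 24.4% called lower. At the adjusted p alone, without a minimum fold change, all 72 were higher, as were 38.9% of all genes tested, while 39.5% were lower. For all 72 members both libraries labelled Pngl-/- lay above both y w libraries, which held for 44% of all genes tested, and for 44.9% they lay below. At an unadjusted p under 0.05, 0 members were lower, and the 13 members that DESeq2 called lower were paralogues under the CPM filter. The median log2 fold change was 0.81 over the 61 nuclear subunits and 0.61 over the 10 mitochondrial mRNAs, beside −0.01 over all genes tested. Scaling bears on the size of these fold changes. Without TMM the median moved to 0.43 over nuclear subunits, 0.22 over mitochondrial mRNAs and −0.39 over all genes tested. The members and all genes thus moved down together. On that scale 18 members were called higher in place of 61. As a plain share of all counts, the nuclear subunits made up 1.16% and 1.19% in y w, 1.52% and 1.46% in Pngl Dp/+, 1.61% and 1.67% in Pngl+/-, and 1.57% in each library labelled Pngl-/-.

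Each of the 5 complexes took part. Summed over its nuclear subunits, complex I was at 2713 and 2805 CPM in y w, 3534 and 3455 in Pngl Dp/+, 4773 and 4925 in Pngl+/-, and 4899.9 and 4936 in the libraries labelled Pngl-/-. Complex IV was at 1672 and 1796 CPM in y w, 2419.8 and 2220.1 in Pngl Dp/+, 3517 and 3727 in Pngl+/-, and 3435 and 3344 in the libraries labelled Pngl-/-. Complex V was at 4267 and 4389 CPM in y w, 5729 and 5628 in Pngl Dp/+, 7199 and 7383 in Pngl+/-, and 6879.6 and 6786 in the libraries labelled Pngl-/-. The 2 libraries of a genotype lay close together, and y w and Pngl Dp/+ were clear of each other and of the remaining 4 libraries in all 5 complexes on this scale. Without TMM the order of complex V differed, at 6349 and 6223 in Pngl Dp/+ against 5989.8 and 5967 in the libraries labelled Pngl-/-. The pooled SD between libraries of the median log2 level was 0.02 over all nuclear subunits. It was 0.13 in complex V and between 0.02 and 0.03 in the other complexes.

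**Figure D1:**
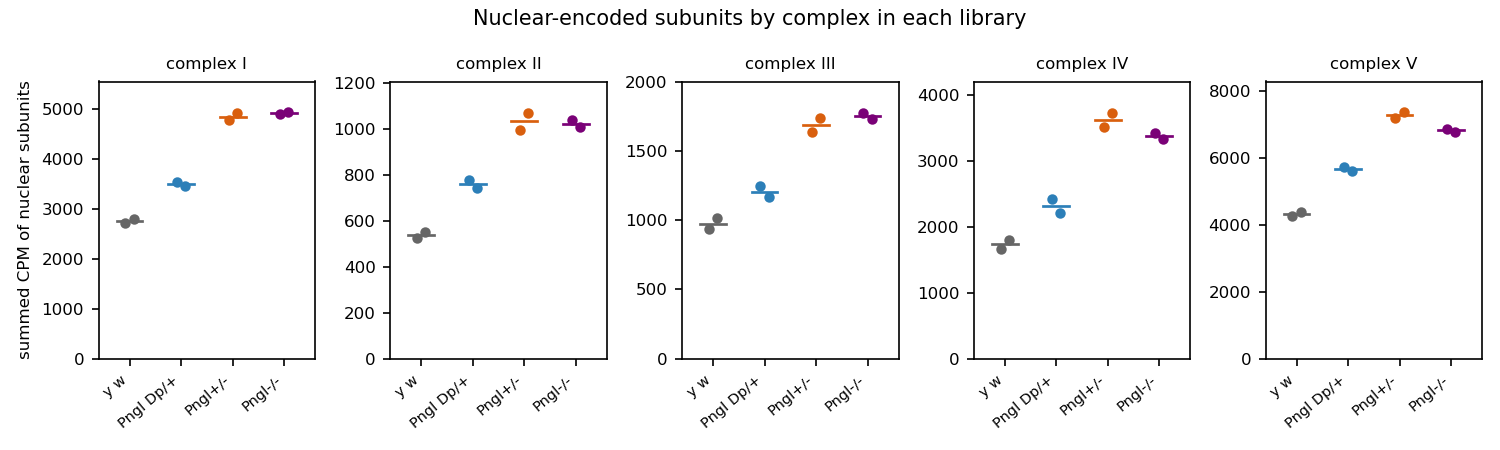
Summed CPM of the nuclear subunits of complexes I to V (vertical axes, from 0) in each library of y w, Pngl Dp/+, Pngl+/- and the libraries labelled Pngl-/- (horizontal axes). Points are libraries and bars are means of 2, and in each complex y w is lowest and Pngl Dp/+ lies between y w and the other genotypes, except that without TMM complex V is higher in Pngl Dp/+ than in the libraries labelled Pngl-/-.

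Complex I oxidises NADH. Of its 34 nuclear subunits, 32 were tested. Over y w, 29 of them were called higher in the libraries labelled Pngl-/-, and the median log2 fold change was 0.79. The change was greatest in ND-13B, an accessory subunit (chromosome 3L, 10693184 to 10694108 in dm6), which was at 55.8 and 56.4 CPM in y w, 67.4 and 68.8 in Pngl Dp/+, 118 and 124 in Pngl+/-, and 120.4 and 129.9 in the libraries labelled Pngl-/-. The y w and Pngl Dp/+ libraries were both well below the rest. Its log2 fold change over y w was 1.16 (SE 0.05, adjusted p = 3.16e-12). ND-MLRQ, whose human counterpart is now counted with complex IV, was at 211 and 231 CPM in y w and at 471 and 506 in the libraries labelled Pngl-/-, a log2 fold change of 1.14 (SE 0.06). At the other end, ND-15 was at 86.9 and 83.3 CPM in y w and 109 and 117 in the libraries labelled Pngl-/-, a log2 fold change of 0.41 that stayed under 1.5-fold, and ND-13A was at 44.2 and 45.4 CPM in y w against 61.9 and 63.5, a log2 fold change of 0.48. ND-49, a core subunit, was the remaining complex I gene tested that was not called.

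Complex II oxidises succinate. SdhC, a membrane anchor of the complex (chromosome 3R, 11208887 to 11209849), was at 117 and 116 CPM in y w, 173 and 165 in Pngl Dp/+, 261 and 271 in Pngl+/-, and 265 and 270.2 in the libraries labelled Pngl-/-. Libraries of Pngl+/- and those labelled Pngl-/- overlapped, and both lay above the others. Its log2 fold change over y w was 1.20 (SE 0.04, adjusted p = 2.72e-13). SdhB, the iron-sulfur subunit, was at 151 and 158 CPM in y w and 333 and 312 in the libraries labelled Pngl-/-, a log2 fold change of 1.06. SdhD, the other anchor, was at 89.9 and 102 CPM against 182 and 178, a log2 fold change of 0.91. SdhA, the flavoprotein that holds the catalytic site, was at 169 and 174 CPM against 258 and 249, a log2 fold change of 0.56 (SE 0.04) that fell just short of 1.5-fold. The assembly factor Sdhaf3 was called higher at a log2 fold change of 0.79, and its call is counted among those of the members. It was at 4.03 and 4.18 CPM in y w, under the minimum level of the CPM filter. In the libraries labelled Pngl-/- it was at 7.29 and 6.90 CPM, so it was tested only because libraries of other genotypes reached that minimum.

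Complex III transfers electrons from ubiquinol to cytochrome c. All 6 of its nuclear subunits in the rule were called higher, with a median log2 fold change of 0.91 and a narrow range. UQCR-6.4 was at 69.6 and 69.1 CPM in y w and 143 and 150.3 in the libraries labelled Pngl-/-, a log2 fold change of 1.08 (SE 0.04). UQCR-11 followed at a log2 fold change of 1.02. The smallest changes were 0.70 in UQCR-14, at 195 and 194 CPM in y w against 313 and 319, and 0.74 in UQCR-C1, a core protein, at 299.8 and 328 CPM against 537 and 514. The exons of UQCR-14 lie wholly within exons of CG32576 on the opposite strand, and 40.5% of the exon bases of UQCR-6.4 overlap those of POSH. Whether reads were counted by strand is not given in the sources used here, so the reads of such pairs may not be told apart.

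Complex IV reduces oxygen to water. Of its 8 nuclear subunits, 7 were called higher. COX5A (chromosome 3R, 11819359 to 11820299) was at 279 and 341 CPM in y w, 466 and 387 in Pngl Dp/+, 822 and 870.1 in Pngl+/-, and 819 and 758 in the libraries labelled Pngl-/-. No library of y w or Pngl Dp/+ came near the other 4. Its log2 fold change over y w was 1.35 (SE 0.09, adjusted p = 1.02e-09), the greatest among the 72 members tested. COX5B was at 202 and 197 CPM in y w and 427 and 423 in the libraries labelled Pngl-/-, a log2 fold change of 1.09. COX7A was at 196 and 199.9 CPM against 329 in each library, a log2 fold change of 0.73. COX6B, at 204 and 208 CPM against 291 and 295, had a log2 fold change of 0.51 and was not called.

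Complex V makes ATP. Of its 11 nuclear subunits, 9 were called higher. ATPsynG, a subunit of the membrane part, was at 168 CPM in each y w library, 257 and 264 in Pngl Dp/+, 372 and 393 in Pngl+/-, and 348 and 338 in the libraries labelled Pngl-/-, and the genotypes did not overlap. Its log2 fold change over y w was 1.03 (SE 0.04). ATPsyndelta, a subunit of the central stalk, followed at a log2 fold change of 1.00, but 35.6% of its exon bases overlap those of CG2962 on the opposite strand. The smallest changes among the nuclear complex V subunits in the rule were those of ATPsynbeta and ATPsynC. ATPsynbeta, which carries the catalytic sites, was at 1412 and 1378 CPM in y w, 1893 and 2013 in Pngl Dp/+, 2338 and 2244 in Pngl+/-, and 2003 and 2035 in the libraries labelled Pngl-/-. Pngl Dp/+ and the libraries labelled Pngl-/- overlapped for this gene, and its log2 fold change over y w was 0.53 (SE 0.04), under 1.5-fold. ATPsynC, which forms the rotating membrane ring, was at 916 and 951 CPM in y w and 1359 and 1339 in the libraries labelled Pngl-/-, also a log2 fold change of 0.53.

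The mitochondrial mRNAs were also higher than in y w, but fewer of them passed 1.5-fold. Of the 10 tested, 6 were called higher in the libraries labelled Pngl-/-. mt:CoI, mt:CoII and mt:CoIII form the catalytic core of complex IV. mt:CoI was at 7778 and 7493 CPM in y w, 7568 and 7765 in Pngl Dp/+, 14587 and 14224 in Pngl+/-, and 11429.7 and 11674 in the libraries labelled Pngl-/-, a log2 fold change over y w of 0.60 (SE 0.04). The levels of y w and Pngl Dp/+ overlapped, and Pngl+/- stood highest. mt:CoIII was at 4779 and 4415 CPM in y w and 8919 and 9129.96 in the libraries labelled Pngl-/-, a log2 fold change of 0.97. mt:CoII was at 2156 and 1969 CPM against 3612 and 3639, a log2 fold change of 0.81. mt:ATPase6, which forms the proton channel of complex V with the ring, was at 889.8 and 742 CPM in y w, 579.7 and 625 in Pngl Dp/+, 1464 and 1399.5 in Pngl+/-, and 1466 and 1426 in the libraries labelled Pngl-/-, a log2 fold change over y w of 0.83 (SE 0.06). Here both Pngl Dp/+ libraries lay below both y w libraries.

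The complex I mRNAs of the mitochondrial genome varied more. mt:ND3 (mitochondrial genome, 5608 to 5961) was at 118 and 91.9 CPM in y w, 47.1 and 45.3 in Pngl Dp/+, 187 and 228 in Pngl+/-, and 159.95 and 163 in the libraries labelled Pngl-/-. The Pngl Dp/+ libraries were far below all others, and the log2 fold change of the libraries labelled Pngl-/- over y w was 0.63 (SE 0.09). mt:ND2 was scarce, at 13.3 and 12.0 CPM in y w, 16.9 and 10.1 in Pngl Dp/+, 34.5 and 33.8 in Pngl+/-, and 22.5 and 32.0 in the libraries labelled Pngl-/-, a log2 fold change over y w of 1.12 with a wide SE of 0.18. The other 3 and mt:Cyt-b, the one complex III subunit encoded in mitochondria, were not called against y w. Their log2 fold changes were 0.35 for mt:ND1, 0.42 for mt:ND5, 0.49 for mt:ND4 and 0.53 for mt:Cyt-b. mt:ND4 was at 594 and 523 CPM in y w, 252 and 278 in Pngl Dp/+, 736 and 897 in Pngl+/-, and 764 and 807 in the libraries labelled Pngl-/-. The 3 mRNAs under the filter were mt:ATPase8, with at most 2 counts in a library, mt:ND4L, with 1 to 43 counts, and mt:ND6, with 6 to 113. The lowest counts of mt:ND4L and mt:ND6 were both in Pngl Dp/+ replicate 2, whose library was the deepest.

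**Figure D2:**
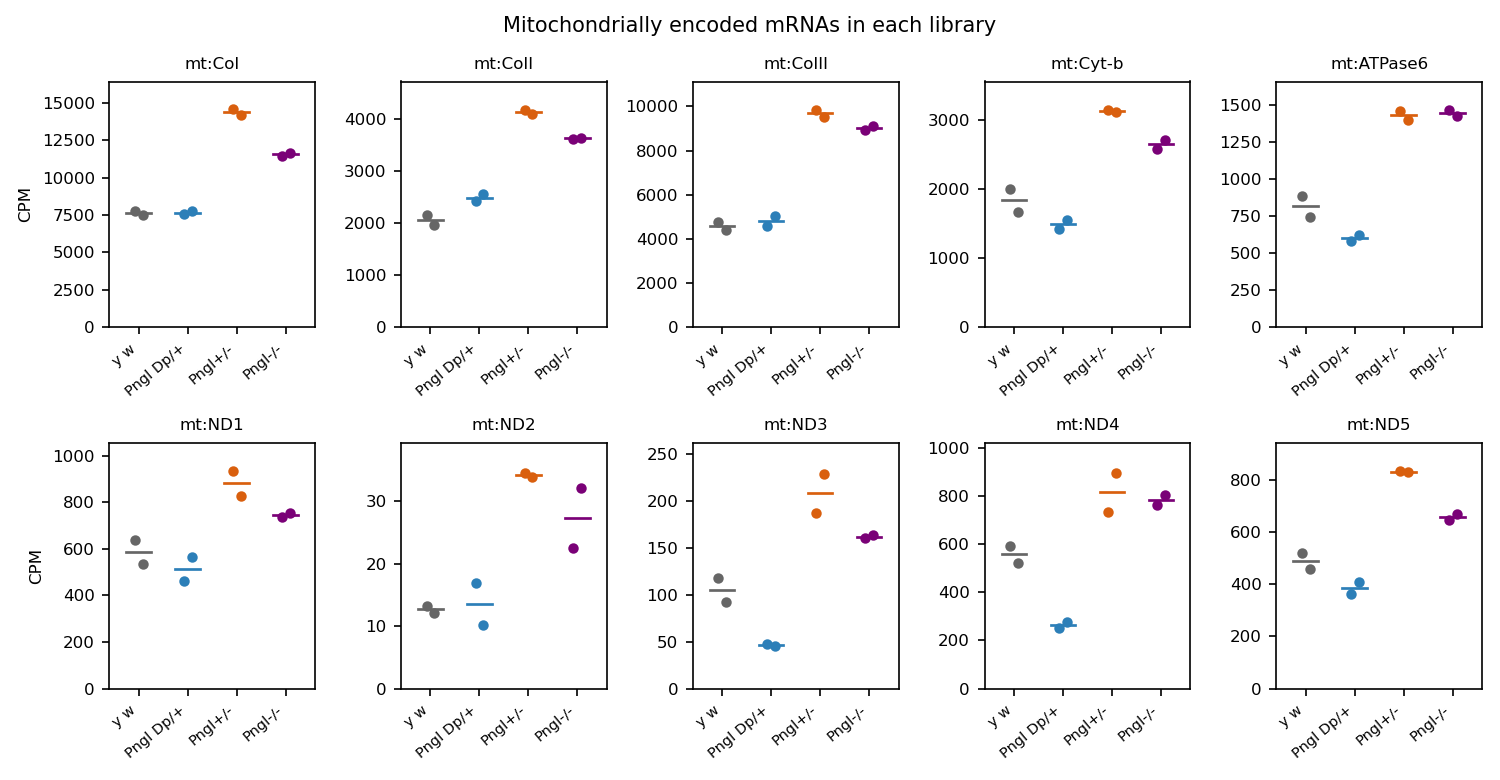
CPM of the 10 tested mRNAs of the mitochondrial genome (vertical axes, from 0) in each library of the 4 genotypes (horizontal axes). Points are libraries and bars are means of 2, and mt:ND3 is at 47.1 and 45.3 CPM in Pngl Dp/+ and at 91.9 CPM or more in every other library.

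The second question was whether 1 copy of the allele over the balancer gave a like difference from y w. The comparison shares its y w libraries with the one above. In Pngl+/-, 61 of 72 members were called higher than in y w and 0 lower, against 13% of all genes tested called higher and 17.5% called lower. At an unadjusted p under 0.05, 0 were lower, and DESeq2 called 3 paralogues lower. At the adjusted p alone all 72 were higher, against 35.5% of all genes tested, with 36% lower. By complex, the 61 called were 25 of 32 nuclear subunits of complex I, 4 of 4 of complex II, 5 of 6 of complex III, 8 of 8 of complex IV, 10 of 11 of complex V and 9 of 10 mitochondrial mRNAs. The median log2 fold change was 0.82 over nuclear subunits and 0.86 over mitochondrial mRNAs. COX5A rose by 1.45 and SdhC by 1.19 on the log2 scale. ND-15, not called in the libraries labelled Pngl-/-, rose by 0.82 in Pngl+/-. The mitochondrial mRNAs mt:ND2, at a log2 fold change of 1.44, mt:CoIII at 1.08, mt:ND3 at 0.99 and mt:ATPase6 at 0.81 were called, and mt:ND4 at 0.55 was not. ATPsynbeta was called at 0.72. Without TMM, 29 members were called higher in Pngl+/- than in y w. The medians on that scale were 0.45 over nuclear subunits, 0.50 over mitochondrial mRNAs and −0.36 over all genes tested.

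Set directly against each other, Pngl+/- and the libraries labelled Pngl-/- gave no call among the members. Of 72, 0 were called higher and 0 lower by edgeR, against 7.58% and 13.1% of all genes tested. At the adjusted p alone, 12 were higher and 18 lower, against 26.2% and 33.5%, and at an unadjusted p under 0.05 edgeR gave 15 higher and 20 lower. DESeq2 called 0 higher and 4 lower, all 4 of which lay under the CPM filter of the main test. ND-51, the NADH-binding core subunit, had the greatest positive difference, at 186 and 193 CPM in Pngl+/- and 243 and 240.2 in the libraries labelled Pngl-/-, a log2 fold change of 0.35 (SE 0.04). ND-42 followed at 0.34. ND-15 had the greatest negative one, at 155 and 146 CPM in Pngl+/- against 109 and 117, a log2 fold change of −0.41 (SE 0.05), and COX7A was at −0.30. ND-51 and ND-42 fall outside the rule for named genes and were chosen after their values were seen. Of the mitochondrial mRNAs, mt:ND3 was at −0.36 and mt:ND5 at −0.34. Among the nuclear subunits 27 differences were positive and 34 negative, a split that turned to 44 and 17 when TMM factors came from all genes. With those factors the median over all genes tested went from −0.05 to 0.03.

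Pngl Dp/+ was the genotype that stood apart between the genomes. Against y w, 6 of its members were called higher and 2 lower, beside 6.78% and 5.68% of all genes tested. As shares of the members tested, these counts were near or below those of all genes, so the number of calls did not set the members apart. The 6 were nuclear and came from 4 complexes: ND-B14 at a log2 fold change of 0.84, ND-AGGG at 0.77, SdhB at 0.66, ATPsynG at 0.63, COX5B at 0.60 and ND-B14.5B at 0.59. ND-B14, an accessory subunit of complex I, was at 36.9 and 36.4 CPM in y w, 65.4 and 65.5 in Pngl Dp/+, 89.3 and 86.4 in Pngl+/-, and 76.1 and 74.0 in the libraries labelled Pngl-/-. ND-B14, ND-AGGG and ND-B14.5B were named because they were called here and fall outside the rule. The 2 lower were mitochondrial, mt:ND3 at −1.18 (SE 0.10, adjusted p = 8.43e-08) and mt:ND4 at −1.07 (SE 0.08, adjusted p = 1.9e-08). mt:ATPase6 at −0.44, mt:ND5 at −0.35 and mt:Cyt-b at −0.30 were lower at the adjusted p but not by 1.5-fold. At the adjusted p alone 59 members were higher and 5 lower, against 27.4% and 25.2% of all genes tested. The median log2 fold change was 0.31 over nuclear subunits and −0.24 over mitochondrial mRNAs.

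Between the 2 genotypes homozygous for *Pngl[ex14]*, 22 members were called higher, and 0 lower, when the libraries labelled Pngl-/- were set against Pngl Dp/+, beside 12.1% and 22.2% of all genes tested. The 22 called comprised 14 of 61 nuclear subunits and 8 of 10 mitochondrial mRNAs. At the adjusted p alone 71 were higher and 0 lower, against 35.2% and 38.8%. mt:ND3 rose by 1.81 (SE 0.10, adjusted p = 2.19e-10), mt:ND4 by 1.57, mt:ATPase6 by 1.26 and mt:ND2 by 1.06 on the log2 scale. Among nuclear subunits COX5A rose by 0.89 and ND-13B by 0.88, and ATPsynbeta, at a log2 fold change of 0.05 (adjusted p = 0.302), did not pass the test. Of the nuclear calls, 8 were in complex I, 1 in complex II, 3 in complex III, 2 in complex IV and 0 in complex V. This count moved with the scaling, to 4 members without TMM and to 51 with TMM factors from all genes. At an unadjusted p under 0.05, 0 members were lower by edgeR, and DESeq2 called 10 paralogues lower. Without TMM the nuclear subunits no longer shared a direction, with 49 higher and 12 lower. On that scale the median was 0.13 over nuclear subunits and −0.36 over all genes tested, beside 0.47 and −0.02 with TMM.

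Compared with Pngl+/-, Pngl Dp/+ had 25 members called lower and 0 higher, against 7.91% and 14% of all genes tested. At an unadjusted p under 0.05, 0 were higher, and DESeq2 called 1 member higher. At the adjusted p alone 0 were higher and 71 lower, against 32.7% and 31.3%. The 25 called were all 10 mitochondrial mRNAs tested and 15 of 61 nuclear subunits. mt:ND3 fell by 2.17 (SE 0.10, adjusted p = 4.07e-11), mt:ND4 fell by 1.62, and COX5A fell by 0.99 on the log2 scale. Without TMM 48 nuclear subunits were lower and 13 higher, and 9 members were called lower, and with TMM factors from all genes 38. The median without TMM was −0.17 over nuclear subunits and 0.32 over all genes tested, beside −0.49 and 0.001 with TMM.

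**Figure D3:**
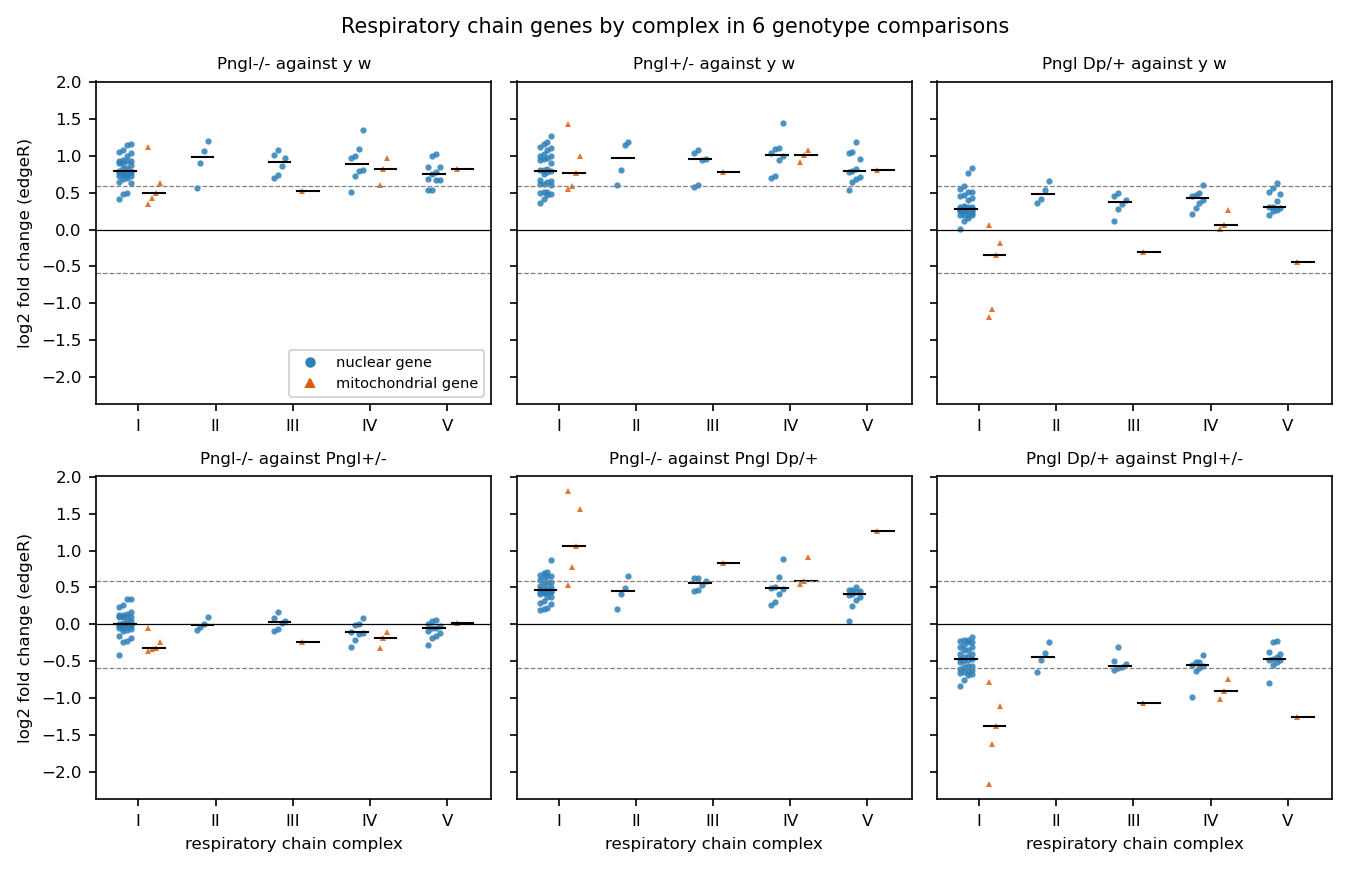
Log2 fold change of every tested subunit gene (vertical axes) by complex I to V (horizontal axes) in 6 panels, 1 for each pair of genotypes, with nuclear genes as circles, mitochondrial mRNAs as triangles, black lines for medians and dashed lines at 1.5-fold. Against y w both genomes lie above 0 in the libraries labelled Pngl-/- and in Pngl+/-, and in Pngl Dp/+ the median is 0.31 over nuclear genes and −0.24 over mitochondrial mRNAs.

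The ratio of mitochondrial to nuclear counts within a library does not depend on how libraries are scaled. Summed over all subunits, it was 1.93 and 1.70 in y w, 1.29 and 1.43 in Pngl Dp/+, 1.98 and 1.87 in Pngl+/-, and 1.68 and 1.74 in the libraries labelled Pngl-/-. Both Pngl Dp/+ libraries lay below the other 6, which overlapped except that Pngl+/- lay above the libraries labelled Pngl-/-. The same 2 libraries were lowest in each complex that draws on both genomes. In complex I the ratio was 0.323 and 0.378 in Pngl Dp/+ and 0.476 or more elsewhere. In complex V it was 0.101 and 0.111 in Pngl Dp/+ and 0.169 or more elsewhere. In complex IV the gap was narrow, with 6.02 and 6.92 in Pngl Dp/+ and a lowest value of 6.97 in the libraries labelled Pngl-/-. On the log2 scale, the median mitochondrial change minus the median nuclear change was −0.55 for Pngl Dp/+ against y w, −0.60 against Pngl+/- and 0.40 for the libraries labelled Pngl-/- against Pngl Dp/+, beside a pooled SD between libraries of 0.13. The y w libraries differed from each other in this quantity, at 2.68 and 2.39. For the libraries labelled Pngl-/- against y w it was −0.20, which became −0.05 without y w replicate 1 and −0.33 without y w replicate 2. For Pngl+/- against y w it was 0.05, and it became 0.14 without y w replicate 1, −0.15 without y w replicate 2 and −0.03 without Pngl+/- replicate 1.

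**Figure D4:**
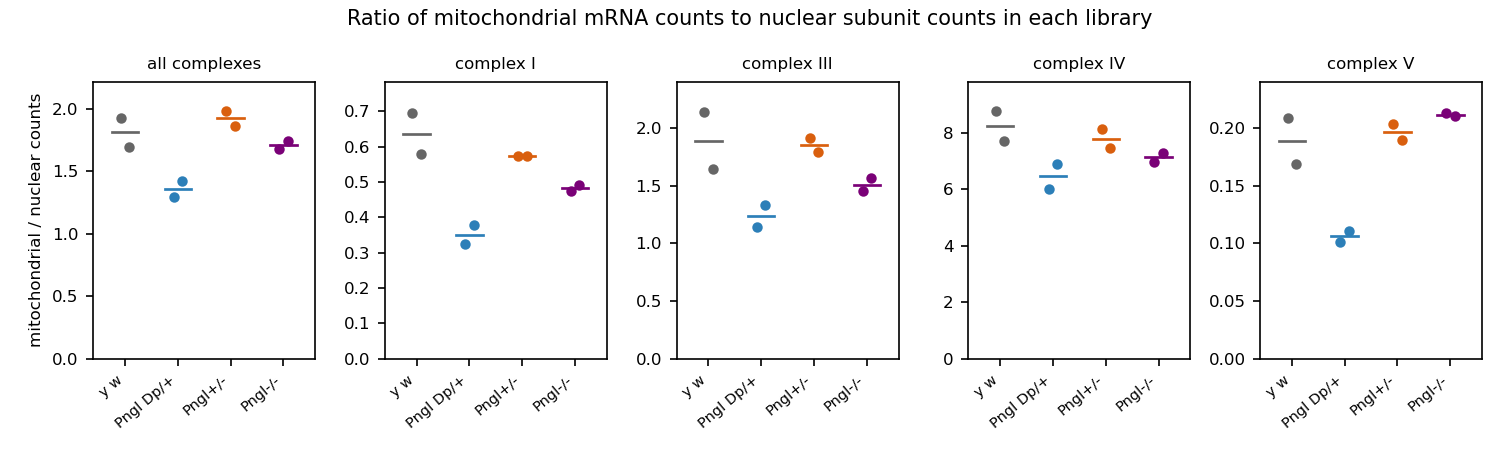
Ratio of summed counts of mitochondrial mRNAs to summed counts of nuclear subunits (vertical axes, from 0) for all complexes and for complexes I, III, IV and V in each library of the 4 genotypes (horizontal axes). Points are libraries and bars are means of 2, and the Pngl Dp/+ libraries, at 1.29 and 1.43 over all complexes, are the lowest in every panel.

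The mitochondrial large ribosomal RNA, mt:lrRNA, which is not a member, comes from the same genome and was not below the y w level in Pngl Dp/+. It was at 43042 and 40504 CPM in y w, 51730.5 and 56845 in Pngl Dp/+, 96098 and 84750.2 in Pngl+/-, and 88429 and 86942 in the libraries labelled Pngl-/-. Both Pngl Dp/+ libraries thus lay above both y w libraries for this RNA and below them for mt:ND3, mt:ND4, mt:ND5, mt:Cyt-b and mt:ATPase6. Against the other genotypes mt:lrRNA went with the mRNAs. It was called lower in Pngl Dp/+ than in Pngl+/-, at a log2 fold change of −0.74. In the libraries labelled Pngl-/- it was called higher than in Pngl Dp/+, at 0.69.

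Ordered by mean level on the TMM scale, all 61 nuclear subunits were lowest in y w and second lowest in Pngl Dp/+. The top position was shared, with 34 highest in Pngl+/- and 27 in the libraries labelled Pngl-/-, and these neighbours did not differ by a call for any gene. The lower neighbours, y w and Pngl Dp/+, were told apart by a call for 6 of the 61. The mitochondrial mRNAs followed another order. Of the 10, 6 (mt:ND1, mt:ND3, mt:ND4, mt:ND5, mt:Cyt-b and mt:ATPase6) were lowest in Pngl Dp/+, and mt:CoI, mt:CoII, mt:CoIII and mt:ND2 were lowest in y w. In all, 9 were highest in Pngl+/- and mt:ATPase6 in the libraries labelled Pngl-/-, by less than the spread between libraries.

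The nuclear subunits share features that the rule did not use. Their mRNAs are short, with a median exon length of 871 bases against 2041 over the 7604 genes tested that had a length. Changes also went with exon length. For the libraries labelled Pngl-/- against y w, Spearman's rho was −0.32 across the 61 nuclear subunits and −0.47 across all 7604 genes, which share libraries and are not independent replicates. For Pngl Dp/+ against Pngl+/- the sign was the opposite, with 0.36 across the nuclear subunits and 0.43 across all genes, and for the libraries labelled Pngl-/- against Pngl+/- it was 0.19 and −0.24. Among genes of 729 to 1265 bases, the middle range of the members, 28 of 31 nuclear subunits (90.3%) and 31.5% of 1312 other genes were called higher over y w in the libraries labelled Pngl-/-, with medians of 0.84 and 0.34. For Pngl+/- against y w the shares were 90.3% and 21.0%. For the libraries labelled Pngl-/- against Pngl Dp/+ the shares were 22.6% of the nuclear subunits and 22.0% of the other genes, with medians of 0.46 and 0.27, so the count of nuclear calls in that comparison was near that of other genes of the same length.

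Nuclear subunits called higher lay on X, 2L, 2R, 3L and 3R. On the small chromosome 4, where 42 of 65 genes tested were called lower against y w in the libraries labelled Pngl-/- and the median log2 fold change was −0.96, the 2 members ND-49 and ATPsynbeta were at 0.49 and 0.53, neither of them called. These were among the smallest changes of nuclear subunits and were opposite in sign to the median of the chromosome. ND-49 was at 131 CPM in each y w library and 187 and 182 in the libraries labelled Pngl-/-.

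Within complex I, the 7 nuclear genes for core subunits (ND-75, ND-51, ND-49, ND-30, ND-24, ND-23 and ND-20), a group formed after values were seen, had a median log2 fold change in Pngl+/- over y w of 0.51, and 3 of 7 were called. The 25 accessory subunits tested had a median of 0.82, and 22 were called. In the libraries labelled Pngl-/- over y w the 2 groups were closer, with medians of 0.74 and 0.84.

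Several genes of the same complexes have symbols that fall outside the rule. In the libraries labelled Pngl-/- over y w, RFeSP, Cyt-c1 and ox of complex III, cype and levy of complex IV and sun of complex V were called higher, with log2 fold changes from 0.68 to 0.93. Cytochrome c itself, Cyt-c-p, had a log2 fold change of 0.48, under 1.5-fold. The other cytochrome c gene, Cyt-c-d, lay under the CPM filter, at 1.81 and 1.51 CPM in y w, 0.97 and 0.96 in Pngl Dp/+, 0.38 and 0.27 in Pngl+/-, and 0.10 and 0.35 in the libraries labelled Pngl-/-. The alpha subunit blw, which pairs with ATPsynbeta in the catalytic head and was singled out after its values were seen, was at 739.9 and 800.5 CPM in y w, 823 and 781 in Pngl Dp/+, 901 and 945 in Pngl+/-, and 851 in each library labelled Pngl-/-, a log2 fold change of 0.14. Other mitochondrial functions were covered by lists of their own. Of 7 assembly factors 3 were called higher, of 10 tricarboxylic acid cycle genes 2, of 9 carriers, porin and import genes 4, and of 12 genes for the upkeep of mitochondrial DNA and RNA 1, with median log2 fold changes of 0.57, 0.27, 0.54 and 0.33, beside 17.9% of all genes tested called higher. The shares of the tricarboxylic acid cycle and of mitochondrial DNA and RNA upkeep were thus near or below that of all genes. No member of these lists was called lower. Of 3 regulators of mitochondrial gene expression, 0 were called higher and 1, ewg, was called lower. The lists differ in length and level of their genes, and their difference from the members was not tested.

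The 24 paralogues ending in L behaved unlike the subunits they resemble, at levels too low for the main test. Such duplicates of respiratory chain genes are known mostly from the testis. Their summed counts were 346 and 355 in y w, 225 and 335 in Pngl Dp/+, 128 and 118 in Pngl+/-, and 54 and 52 in the libraries labelled Pngl-/-, or 14.54 and 12.8 CPM, 9.95 and 10.7, 6.05 and 6.33, and 2.81 and 2.58. They were highest in y w and next in Pngl Dp/+, the genotypes where the nuclear subunits were lowest, and no genotypes overlapped. Between 20 and 24 of the 24 had a count in each library of the other genotypes, and 10 and 8 in the libraries labelled Pngl-/-. UQCR-11L and ND-51L1 made up most of what was left there: without them the summed counts were 16 and 9, against 73 to 289 elsewhere. Markers of the male germ line moved with them. Of 7 such genes, all 7 had counts in every library of the other genotypes and 2 in each library labelled Pngl-/-, where betaTub85D, dj, can and aly were at 0. Their summed level was 10.2 and 10.3 CPM in y w, 7.47 and 8.16 in Pngl Dp/+, 4.25 and 4.83 in Pngl+/-, and 3.33 in each library labelled Pngl-/-. Nearly all of the last value was mia, at 3.28 CPM in each of these libraries and 2.94 and 3.21 in y w. Without mia, a choice made after seeing the data, the sum was 7.27 and 7.10 CPM in y w, 4.77 and 5.16 in Pngl Dp/+, 2.505 and 2.95 in Pngl+/-, and 0.0521 and 0.0497 in the libraries labelled Pngl-/-. The part of male germ line cells in the level of the paralogues was not tested.

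**Figure D5:**
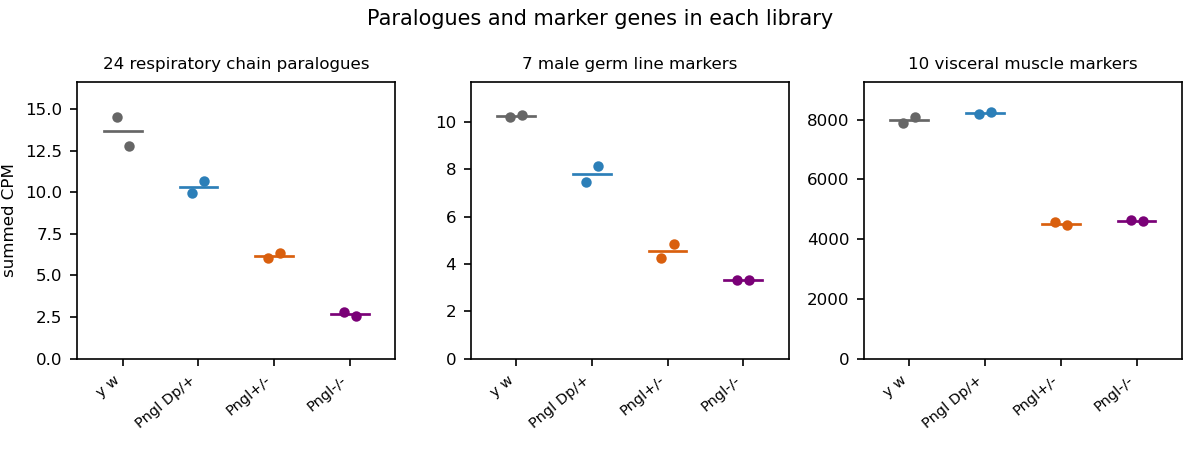
Summed CPM (vertical axes, from 0) of the 24 paralogues ending in L, of 7 male germ line markers and of 10 muscle markers in each library of the 4 genotypes (horizontal axes). Points are libraries and bars are means of 2, and the paralogues and the germ line markers both go down from y w through Pngl Dp/+ and Pngl+/- to the libraries labelled Pngl-/-, where mia makes up 3.28 of the 3.33 CPM of the germ line markers.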

How the data were processed

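Poly(A)-selected RNA from pooled larval midguts was sequenced as stranded paired-end libraries, 2 biological replicates for each of 4 genotypes. The authors trimmed adapters with cutadapt, aligned reads to dm6 with STAR 2.5.3 and deposited counts of reads over the collapsed exons of each gene (FlyBase annotation), not normalized. How reads were assigned by strand, or when they matched several places, is not given in the sources used here.

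Here the counts were tested in edgeR 4.0.16 (R 4.3.3) with the quasi-likelihood test over all 8 libraries and 1 mean per genotype, for the 7665 genes with at least 5 CPM in at least 2 libraries. Library sizes were scaled by TMM, p-values were adjusted by Benjamini-Hochberg over all genes tested, and calls required 1.5-fold or more together with an adjusted p no higher than 0.05. Medians over members are descriptions with no test. Gene positions and exon lengths came from an Ensembl annotation in dm6 coordinates. Figures were drawn with matplotlib 3.10.9.

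Replicates differed by more than sampling noise in every genotype. The alternatives were DESeq2 1.42.0, other library scalings, other filters, other call rules, a replicate block and leaving out each library. The members and lists were chosen with earlier results of these data known. Named members were all mitochondrial mRNAs, SdhA to SdhD, and in complexes I, III, IV and V the 2 nuclear subunits with the largest change and the 2 with the smallest. In each complex the 2 members most abundant per kb, from either genome, were named too. From the list of assembly factors 2 genes set down in error (nmdyn-D6 and Ttm50) were removed before values were seen, and the genes Coa3, Fum1, esg and Dl were not analysed here.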

Additional observations from a re-analysis of the deposited data

How the results depend on the processing

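The call rule, library scaling and the handling of low counts all moved the number of calls. The share of all genes called was taken only for the main test and with no minimum fold change. Under the other settings these counts cannot show whether members moved more than other genes. Low counts limit what depth can show, since the paralogues and 5 other members lay under the CPM filter. Against y w, the libraries labelled Pngl-/- had 61 members called higher, and 18 with library totals alone (no composition normalization). The number called lower there was 13 under DESeq2, 3 with a filter of 1 CPM and 16 with no filter, all paralogues under the main filter. Against Pngl+/-, where the main test made 0 calls, there was 1 called higher with a filter of 1 CPM and 1 with no filter, 4 called lower under DESeq2 and 4 with a filter of 1 CPM, 10 lower with no filter, and 12 higher and 18 lower with no minimum fold change. Against Pngl Dp/+, 22 became 42 under DESeq2, 4 with library totals alone, 51 with TMM factors from all genes, 40 with a filter of 1 CPM, 53 with no filter, 13 when tested against a fold change of 1.5 and 71 with no minimum fold change, and the number lower was 10 under DESeq2, 3 with a filter of 1 CPM and 14 with no filter. For Pngl+/- against y w, 29 were called higher with library totals alone, and 3, 4 and 10 were lower under DESeq2, with a filter of 1 CPM and with no filter. For Pngl Dp/+ against y w, 3 were called higher with upper-quartile factors, 2 when tested against a fold change of 1.5 and 59 with no minimum fold change, and 4 lower with no filter and 5 with no minimum fold change. For Pngl Dp/+ against Pngl+/-, 1, 2 and 4 were called higher under DESeq2, with a filter of 1 CPM and with no filter, and the number lower was 9 with library totals alone, 38 with TMM factors from all genes, 40 with no filter, 14 when tested against a fold change of 1.5 and 71 with no minimum fold change. With library totals alone 12 of 61 nuclear subunits had a negative fold change for libraries labelled Pngl-/- against Pngl Dp/+ and 13 a positive one for Pngl Dp/+ against Pngl+/-, where the main test had 0 of each. Among the fold changes given by name in the report, the direction turned on that scale for mt:ND1 in the libraries labelled Pngl-/- against y w (−0.0395 on the log2 scale) and for ATPsynbeta against Pngl Dp/+ (−0.29). The cause of these moves was not tested beyond the number of genes each filter admits.

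Leaving out 1 library at a time, members called higher ranged from 60 to 63 (libraries labelled Pngl-/- against y w), 0 to 0 (against Pngl+/-), 20 to 29 (against Pngl Dp/+), 59 to 62 (Pngl+/- against y w), 5 to 7 (Pngl Dp/+ against y w) and 0 to 0 (Pngl Dp/+ against Pngl+/-), and members called lower 0 to 0, 0 to 1, 0 to 0, 0 to 0, 2 to 2 and 20 to 30 in the same order. The mitochondrial minus nuclear median ranged from −0.33 to −0.0502, −0.26 to −0.17, 0.32 to 0.44, −0.15 to 0.14, −0.74 to −0.41 and −0.65 to −0.49. A genotype left with 1 library was assumed to vary like the others. With a replicate block the calls were 61 higher, none, 22 higher, 61 higher, 6 higher and 2 lower, and 26 lower, and the block changed no call count by over 1.5 times. Deviations of same-numbered libraries correlated between genotypes from −0.20 to 0.38, the highest being Pngl+/- with Pngl Dp/+. With 2 libraries per genotype, these values cannot decide whether the replicate numbers pair the samples.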
